A study of Homo sapiens with 42 samples.

Results

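A set of 10 genes of nuclear architecture were followed through senescence of human lung fibroblasts. They were chosen by name, from the 28266 gene symbols of the count table, as the 3 lamin genes LMNA, LMNB1 and LMNB2, the lamin B receptor gene LBR, the HMG box genes HMGB1, HMGB2 and HMGB3, the AT-hook genes HMGA1 and HMGA2, and CBX5, which encodes the heterochromatin protein HP1α. All 10 symbols had a row, and all 10 had enough counts to be tested in every comparison. The rule used names and no measured value, but it was set with earlier results of these data known.

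Lamins are intermediate filament proteins that form a meshwork under the inner nuclear membrane, and peripheral heterochromatin is tethered to this meshwork, partly through LBR, which binds both B-type lamins and HP1 proteins. HMGB proteins bend DNA without sequence specificity, and HMGB1 can also leave the cell and act as an alarmin. HMGA proteins bind the minor groove of AT-rich DNA and are known as components of the heterochromatin foci that form in some senescent fibroblasts, and loss of lamin B1 is widely used as a marker of senescence.

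RNA of IMR90 cells, a strain of human fetal lung fibroblasts, was sequenced in 42 libraries of 12 groups. In the first model, IMR90 ER:RAS cells, which carry an oncogenic RAS protein fused to the oestrogen receptor, received 100 nM 4-hydroxytamoxifen (4OHT), which activates the fusion and induces oncogene-induced senescence (OIS), or the solvent DMSO. In the second, IMR90 cells received 50 µg/ml bleomycin (BLEO), a DNA-damaging drug, for 24 h, or DMSO. After 7 days of culture, a control shRNA (shControl) or either of a pair of shRNAs against COPB2 (shCOPB2_1 and shCOPB2_2) was induced with 1 µg/ml doxycycline for 72 h before RNA was harvested at day 10. Each treatment was combined with each shRNA, with 3 libraries per group in the ER:RAS cells (18 libraries) and 4 in the IMR90 cells (24 libraries). All groups therefore carried an induced shRNA, and no untransduced cells were compared. Both models rest on 1 fibroblast strain. The labels number the replicates without stating that they were separate cultures. A figure legend of the study calls the replicates of its COPB2 knockdown signatures in both models independent experiments, without saying which libraries they were. The p-values measure the spread between these libraries.

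Total counts per library ranged from 13148194 to 23597310. Levels are given as counts per 1000000 counts (CPM), scaled by trimmed mean of M-values (TMM) factors, and a gene was called changed at a Benjamini-Hochberg adjusted p under 0.05 in edgeR's quasi-likelihood test. Fold changes are on the log2 scale with their standard error (SE). HRAS, the gene carried by the fusion, stood at 3937 ± 678 CPM (SD, n = 3) in ER:RAS DMSO shControl and at 35.9 ± 10.3 CPM (SD, n = 4) in IMR90 DMSO shControl. COPB2 was 4.31-fold to 7.61-fold lower in the 8 comparisons of a COPB2 shRNA with shControl, without overlap between libraries. Fibroblast markers summed to between 8163 and 27781 CPM in the 42 libraries, against 52.8 to 331 CPM for epithelial, 7.77 to 87.6 CPM for endothelial and 12.6 to 121 CPM for immune markers. Libraries differed in how counts moved with the GC content of transcripts, with slopes of -0.42 to 0.71 log2 units per 10 points of GC, and 4 libraries were steep. They were ER:RAS DMSO shControl replicate 2 (0.71), ER:RAS DMSO shCOPB2_1 replicate 2 (0.69), ER:RAS DMSO shCOPB2_2 replicate 1 (0.69) and ER:RAS 4OHT shControl replicate 1 (0.68). The transcripts of LMNA, LMNB2 and HMGA1 were GC-rich (61.5%, 61.1% and 61.6%), while those of the other members held 37.8% to 47.8%. Counts also moved with transcript length, with slopes of -0.50 to 0.25 log2 units per doubling. In ER:RAS cells these slopes were -0.50 to -0.22 in 4OHT replicates 1 and 2 and -0.02 to 0.02 in 4OHT replicate 3. The ER:RAS DMSO libraries had -0.19 to 0.13. Member transcripts ran from 1441 bases (HMGB2) to 11546 (CBX5).

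In OIS with shControl, 5 of the 10 genes changed. LMNB1, LBR and HMGB2 fell, and HMGA1 and HMGA2 rose. The same 5 genes changed, each in the same direction, after bleomycin with shControl. Of all genes tested, 35.7% were called in OIS (20.2% lower and 15.5% higher) and 31.2% after bleomycin (15.8% lower and 15.4% higher). Lower in both models were 3 of the 10 genes, against 9.61% of the 14010 genes tested in both, and higher in both were 2, against 6.25%. The libraries of 5 members did not overlap between 4OHT and DMSO, against 38.5% of all genes, and those of 3 members did not overlap between bleomycin and DMSO, against 28%. The median log2 fold change of the 10 genes was -0.22 in OIS and -0.25 after bleomycin, beside -0.08 and -0.01 over all genes tested. RNA was taken from whole cultures, in which fewer cells of a kind and less RNA per cell cannot be told apart.

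**Figure D1:**
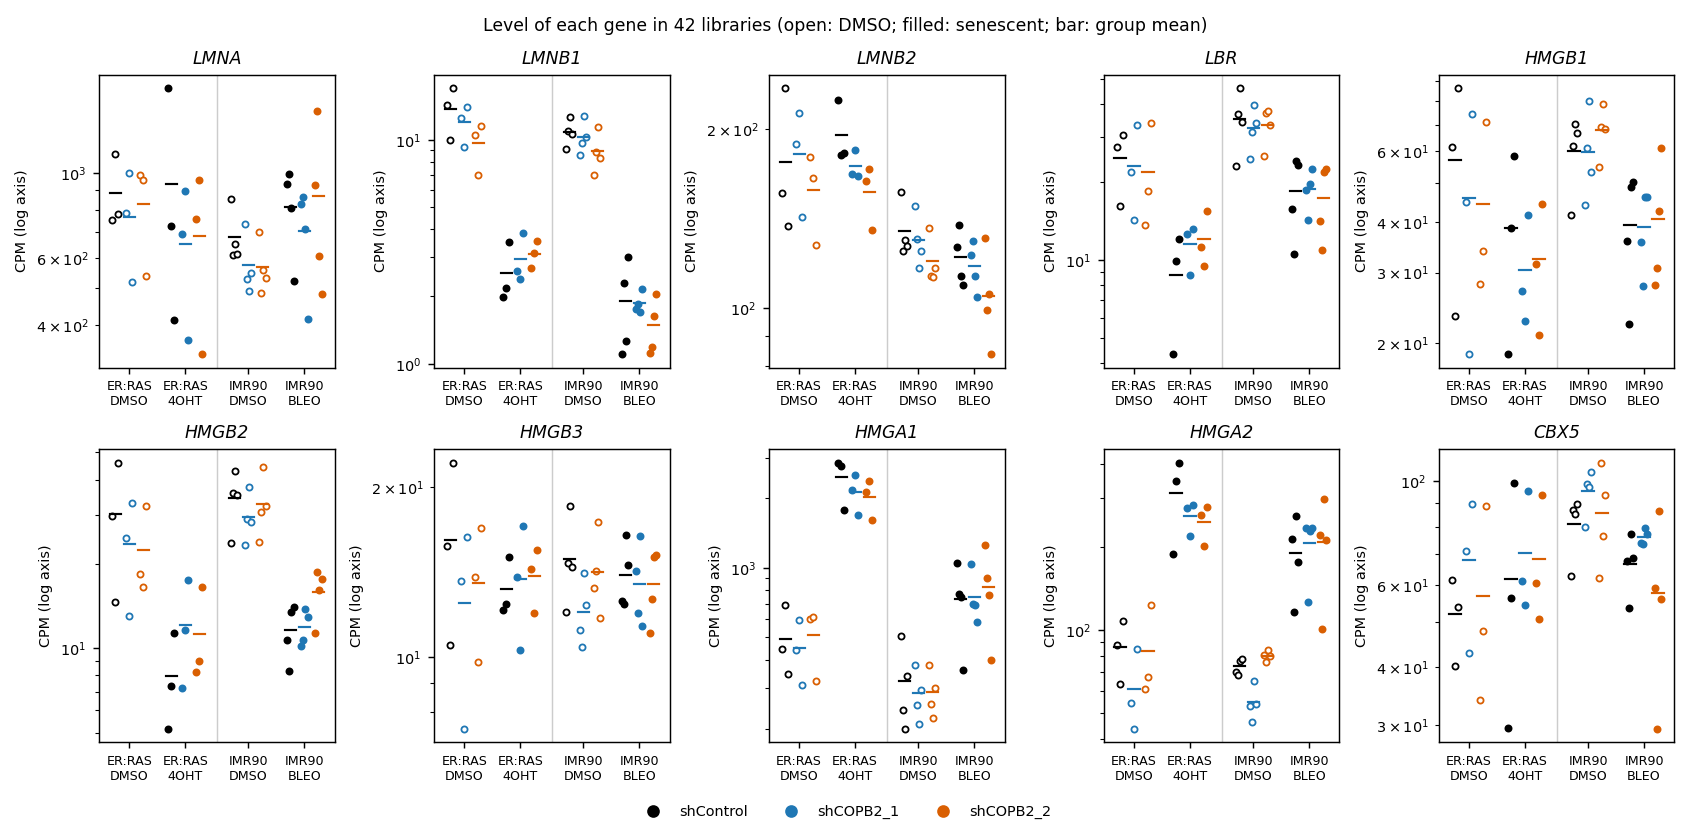
CPM (log axis) of each of the 10 genes in every library of the 12 groups, 1 panel per gene, with points for libraries and bars for group means. LMNB1 is the gene whose 21 senescent libraries (1.10 to 3.85 CPM) all lie below its 21 DMSO libraries (6.95 to 17.1 CPM).

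LMNB1 (chr5:126776623-126837020, GRCh38.p14, plus strand) encodes lamin B1, which stays farnesylated and bound to the nuclear membrane. Its level was 14.3, 10.0 and 17.1 CPM in the ER:RAS DMSO shControl libraries and 1.99, 2.18 and 3.48 CPM in the 4OHT libraries. In IMR90 cells it was 9.09, 11, 12.6 and 10.6 CPM with DMSO and 1.10, 2.29, 1.27 and 3.01 CPM after bleomycin. Every senescent library was below every DMSO library, in both models. LMNB1 fell by 2.53 in OIS (SE 0.37, adjusted p = 6.47e-05) and by 2.53 after bleomycin (SE 0.26, adjusted p = 3.96e-07), to 0.174 and 0.173 of the DMSO level. Its separation also held across the whole series: the 21 senescent libraries of both models and all 3 shRNAs had 1.10 to 3.85 CPM (median 2.16) and the 21 DMSO libraries 6.95 to 17.1 CPM (median 10.5). No other member was free of overlap over all 42 libraries. LMNB1 was counted with 18 to 355 reads per library, the lowest depth among the members.

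LMNA (chr1:156082573-156140081, plus strand) encodes lamins A and C and was the most abundant lamin, with a median of 226 CPM per kilobase of transcript over the 42 libraries, against 28.8 for LMNB2 and 1.87 for LMNB1. LMNA stood at 755, 1119.6 and 783 CPM in ER:RAS DMSO shControl and at 1668, 726 and 413 CPM with 4OHT. The 4OHT libraries lay on both sides of the DMSO libraries, and the highest value of each treatment was in a library with a steep GC slope. With the GC and length correction the log2 fold change in OIS was -0.24 (adjusted p = 0.434). In IMR90 cells LMNA was at 853, 610.4, 650.4 and 612 CPM with DMSO and at 936, 995, 810.5 and 523 CPM after bleomycin, again with overlap. The log2 fold change was -0.04 in OIS (95% interval -0.92 to 0.84, adjusted p = 0.963), with the sign turning under DESeq2 size factors (0.10), and 0.23 after bleomycin (-0.31 to 0.78, adjusted p = 0.580).

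LMNB2 (chr19:2428166-2456959, minus strand) encodes the other B-type lamin, and unlike LMNB1 it did not pass the test in either model. Its level was 156, 235 and 138 CPM in ER:RAS DMSO shControl and 223, 181 and 182 CPM with 4OHT. Levels in IMR90 cells were 157, 125, 130.4 and 127 CPM with DMSO and 127, 138, 113 and 109 CPM after bleomycin. The libraries overlapped in both models. The log2 fold change was 0.06 in OIS (95% interval -0.30 to 0.43, adjusted p = 0.837) and -0.17 after bleomycin (-0.45 to 0.10, adjusted p = 0.387), so a fall of the size of LMNB1's lay outside both intervals.

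LBR (chr1:225401502-225428821, minus strand) encodes the lamin B receptor, an inner nuclear membrane protein that also has sterol reductase activity. Its level was 27.4, 16.2 and 30.6 CPM in ER:RAS DMSO shControl and 4.33, 9.91 and 12 CPM with 4OHT, without overlap. In IMR90 cells it was 23.1, 36.8, 46.3 and 34.3 CPM with DMSO and 15.8, 10.6, 24.1 and 23.3 CPM after bleomycin, where the upper bleomycin libraries reached past the lowest DMSO library. LBR fell by 1.59 in OIS (SE 0.48, adjusted p = 0.0166) and by 0.97 after bleomycin (SE 0.26, adjusted p = 0.00718). The call in OIS was lost without ER:RAS 4OHT shControl replicate 1 (adjusted p = 0.0668), which held the lowest level and a steep GC slope, and without ER:RAS DMSO shControl replicate 3 (0.0587).

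The HMGB genes did not move alike. HMGB2 (chr4:173331376-173334358, minus strand), a chromatin protein linked to proliferating cells, was at 29.8, 14.6 and 46.0 CPM in ER:RAS DMSO shControl and at 5.14, 7.34 and 11.3 CPM with 4OHT. Levels in IMR90 cells were 23.8, 35.9, 42.9 and 35.3 CPM with DMSO and 10.7, 8.32, 13.5 and 14.1 CPM after bleomycin. All senescent libraries were below all DMSO libraries within each model. HMGB2 fell by 2.03 in OIS (SE 0.55, adjusted p = 0.00918) and by 1.60 after bleomycin (SE 0.22, adjusted p = 8.51e-06).

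HMGB1 (chr13:30456704-30617597, minus strand), the alarmin, was at 61.6, 23.4 and 86.4 CPM in ER:RAS DMSO shControl and at 18.8, 38.8 and 58.4 CPM with 4OHT. In IMR90 cells it was at 41.8, 61.8, 70.4 and 66.8 CPM with DMSO and at 35.9, 22.3, 49.1 and 50.3 CPM after bleomycin. The groups overlapped in both models, and the lowest DMSO library of the ER:RAS cells was the replicate with a steep GC slope. The log2 fold changes were -0.66 in OIS (SE 0.61, adjusted p = 0.446) and -0.65 after bleomycin (SE 0.26, adjusted p = 0.0663), neither of which passed. After each library was corrected for its GC and length trends, the values were -0.69 (adjusted p = 0.0142) and -0.68 (adjusted p = 0.00318), and both passed. With this correction 7907 of 14297 genes were called in OIS and 6664 of 14783 after bleomycin, against 5098 and 4614 without it.

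HMGB3 (chrX:150980507-150990771, plus strand), the third member of the family, was at 15.7, 10.5 and 22.1 CPM in ER:RAS DMSO shControl and at 12.1, 12.4 and 15 CPM with 4OHT. Levels in IMR90 cells were 12, 14.7, 18.5 and 14.4 CPM with DMSO and 12.5, 12.4, 16.5 and 14.6 CPM after bleomycin. The senescent libraries fell within the range of the DMSO libraries in both models. The log2 fold changes were -0.40 (SE 0.37, adjusted p = 0.445) and -0.13 (SE 0.16, adjusted p = 0.605). HMGB1 has 50 pseudogenes named after it in RefSeq and HMGB3 has 32, nearly all of them without a row in the count table, so reads shared with these copies could have been lost or added.

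The HMGA genes rose in both models. HMGA1 (chr6:34236873-34246231, plus strand) was the most abundant member per kilobase, with a median of 311 CPM per kilobase. It was at 446, 687 and 346 CPM in ER:RAS DMSO shControl and at 2856, 2762 and 1779.9 CPM with 4OHT. In IMR90 cells it was at 507, 242, 200.1 and 341 CPM with DMSO and at 1048, 773, 745 and 359.9 CPM after bleomycin. The 4OHT libraries were all above the DMSO libraries, whereas the lowest bleomycin library was below the highest DMSO library. HMGA1 rose by 2.23 in OIS (SE 0.30, adjusted p = 2.86e-05), which is 4.69-fold, and by 1.16 after bleomycin (SE 0.35, adjusted p = 0.0134), which is 2.23-fold. Without IMR90 BLEO shControl replicate 1, the rise after bleomycin was 0.94 and did not pass (adjusted p = 0.0553).

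HMGA2 (chr12:65824460-65966291, plus strand), the paralogue repressed by let-7 microRNAs in differentiated cells, was at 88.2, 63.8 and 107 CPM in ER:RAS DMSO shControl and at 189, 346 and 404 CPM with 4OHT. Levels in IMR90 cells were 70.5, 68.7, 76.9 and 78.3 CPM with DMSO and 213, 116, 258 and 176 CPM after bleomycin. The groups did not overlap in either model. HMGA2 rose by 1.76 in OIS (adjusted p = 0.00209), which is 3.38-fold, and by 1.34 after bleomycin (adjusted p = 0.000359), which is 2.53-fold. Its antisense neighbour HMGA2-AS1 had 0 to 9 counts per library. For HMGA1, RefSeq names 8 pseudogenes, of which HMGA1P7 had a row, with 0 to 2 counts.

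CBX5 (chr12:54230942-54280122, minus strand) encodes HP1α, which binds methylated histone H3 in heterochromatin. It was at 61.5, 40.2 and 53.8 CPM in ER:RAS DMSO shControl and at 29.6, 56.4 and 99.3 CPM with 4OHT. In IMR90 cells it was at 62.6, 87.0, 85.2 and 89.5 CPM with DMSO and at 67.4, 53.6, 77.0 and 68.5 CPM after bleomycin. The 4OHT libraries spread past the DMSO range on both sides, and the bleomycin libraries overlapped the DMSO libraries. The lowest 4OHT value was in replicate 1, which had a steep GC slope. The log2 fold change was 0.17 in OIS (SE 0.48, adjusted p = 0.83) and -0.32 after bleomycin (SE 0.23, adjusted p = 0.314). With the GC and length correction the value in OIS was 0.30 and did not pass (adjusted p = 0.111). With the correction and the replicate block it was 0.32 and passed (adjusted p = 0.0281), as did 9193 of 14297 genes.

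**Figure D2:**
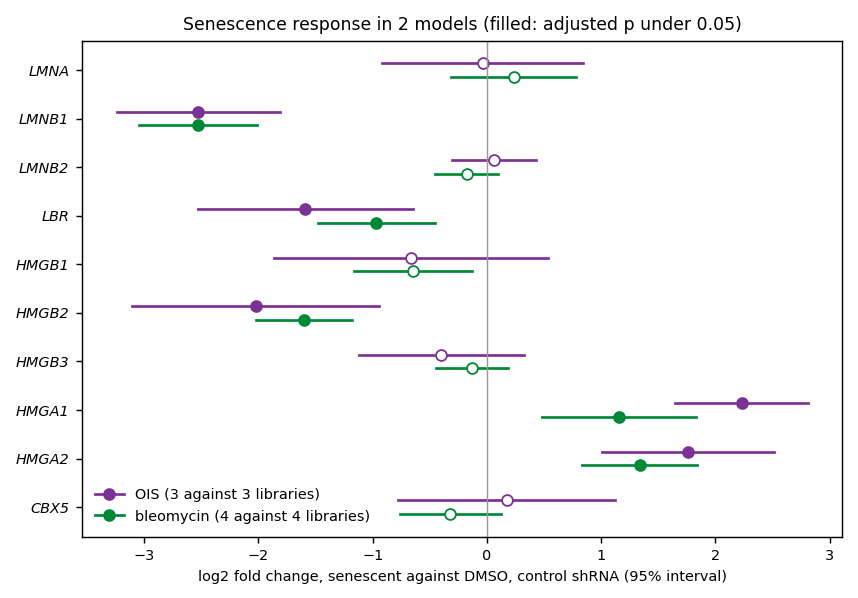
Log2 fold change of the 10 genes in OIS and after bleomycin with shControl, with bars for the 95% interval. LMNB1 sits at -2.53 in both models, and HMGA1 shows the widest gap between them (2.23 in OIS, 1.16 after bleomycin).

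The models were then compared directly, as the difference between the OIS and bleomycin log2 fold changes with shControl in 1 fit of 42 libraries. None of the 10 genes was called by edgeR or by DESeq2, while 20.3% of all 15299 genes tested were called by edgeR. At an unadjusted p under 0.05 there was 1 member, HMGA1, whose rise was larger in OIS by 1.14 (SE 0.50, adjusted p = 0.106). The other differences ran from -0.56 for LBR to 0.54, and the farthest bound of any 95% interval was 2.12, so differences of more than this size lay outside all the intervals. With the GC and length correction, HMGA1 (0.92, adjusted p = 0.0383) and LBR (-0.76, adjusted p = 0.0323) passed, and so did 5151 of the 15299 genes. HMGA1 also passed without ER:RAS DMSO shControl replicate 2 (adjusted p = 0.0486).

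The DMSO levels of both lines were also compared. Between ER:RAS DMSO and IMR90 DMSO with shControl, none of the 10 genes was called by edgeR or DESeq2, against 0.346% of all genes called by edgeR. The log2 differences ran from -0.64 for CBX5 to 0.61 for HMGA1. CBX5 was the member whose libraries did not overlap, which was so for 12.7% of all genes. LMNB2 was the member with an unadjusted p under 0.05 (0.38 higher in ER:RAS cells, adjusted p = 0.391), and it passed with the GC and length correction (0.36, adjusted p = 0.0286). With that correction 142 of the 15299 genes tested were called, against 53 without it.

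Proportions within each family were compared inside single libraries, where the scaling between libraries has no part. Per length, LMNB1 made up 1.58% ± 0.648 of the 3 lamin transcripts in ER:RAS DMSO shControl and 0.369% ± 0.303 with 4OHT (SD, n = 3). In IMR90 cells the share was 1.55% ± 0.360 with DMSO and 0.264% ± 0.196 after bleomycin (SD, n = 4). LMNA made up 84.3% to 90.1% of the lamin transcripts in these 4 groups. HMGB2 supplied 58.0% ± 1.21 of the HMGB transcripts in ER:RAS DMSO shControl and 33.6% ± 1.13 with 4OHT (SD, n = 3), and 60.9% ± 1.15 with DMSO and 42.1% ± 1.01 after bleomycin in IMR90 cells (SD, n = 4). The HMGB2 shares of the senescent and the DMSO libraries did not overlap in either model. HMGA1 supplied 88.1% to 94.0% of the HMGA transcripts per length in these groups.

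Each ratio of counts was tested over all 3 shRNAs, senescent against DMSO, by an exact two-sided permutation test within shRNA, with p-values adjusted over the 10 ratios computed. The log2 ratio of LMNB1 to LMNA was -6.12 ± 0.68 with DMSO and -7.89 ± 1.04 with 4OHT (SD, n = 9), a difference of -1.76 (exact permutation p = 0.00225, adjusted p = 0.00375). In IMR90 cells it was -5.92 ± 0.41 with DMSO and -8.78 ± 0.86 after bleomycin (SD, n = 12), a difference of -2.86 with no overlap. Its exact permutation p of 5.83e-06 is the smallest that the 343000 regroupings can give (adjusted p = 5.83e-05), and in OIS the smallest was 0.00025, from 8000 regroupings. This test counts same-numbered libraries of different shRNAs as independent, and in IMR90 cells they deviated together, so its p-values are too small there. In ER:RAS cells the deviations of same-numbered libraries correlated at -0.51 to 0.85 between a COPB2 shRNA and shControl. There 2 of 3 libraries were most like their own number in each comparison, so the p-values in OIS may also be too small. With the ratio averaged over the shRNAs for each replicate number, the exact permutation p was 0.0286 after bleomycin, the smallest that 4 values against 4 allow, and 0.20 in OIS, where 3 against 3 cannot go below 0.10. In that form no ratio can pass adjustment over the 10 ratios. LMNB2 against LMNA gave 0.30 in OIS (exact permutation adjusted p = 0.255) and -0.49 after bleomycin (exact permutation adjusted p = 0.00106). LMNB1 and LMNA differ in GC content (47.8% and 61.5%), so this ratio also moves with the GC trend of a library, and the part of that trend in the result was not tested.

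The HMGB transcripts are closer to each other in GC content (37.8% to 43.6%). They differ in length (1441 bases for HMGB2, 3507 for HMGB3 and 5456 for HMGB1), so their ratios also move with the length trend of a library. The part of that trend in the ratios was not tested. HMGB2 against HMGB1 differed by -0.81 in OIS (exact permutation adjusted p = 0.002) and by -0.61 after bleomycin (exact permutation adjusted p = 0.000447). HMGB3 against HMGB1 differed the other way, by 0.69 after bleomycin (exact permutation adjusted p = 0.000117) and by 0.46 in OIS, where it did not pass (exact permutation adjusted p = 0.0696). HMGA2 against HMGA1 differed by -0.36 in OIS (exact permutation adjusted p = 0.363) and by 0.16 after bleomycin (exact permutation adjusted p = 0.557), neither of which passed. Averaged over the shRNAs for each replicate number, HMGB2 to HMGB1 did not overlap between senescent and DMSO sets in either model, nor did HMGB3 to HMGB1 after bleomycin (exact permutation p = 0.10 in OIS and 0.0286 for each after bleomycin, all at the smallest possible). Over the single libraries of all 3 shRNAs, each of these ratios overlapped between senescent and DMSO.

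**Figure D3:**
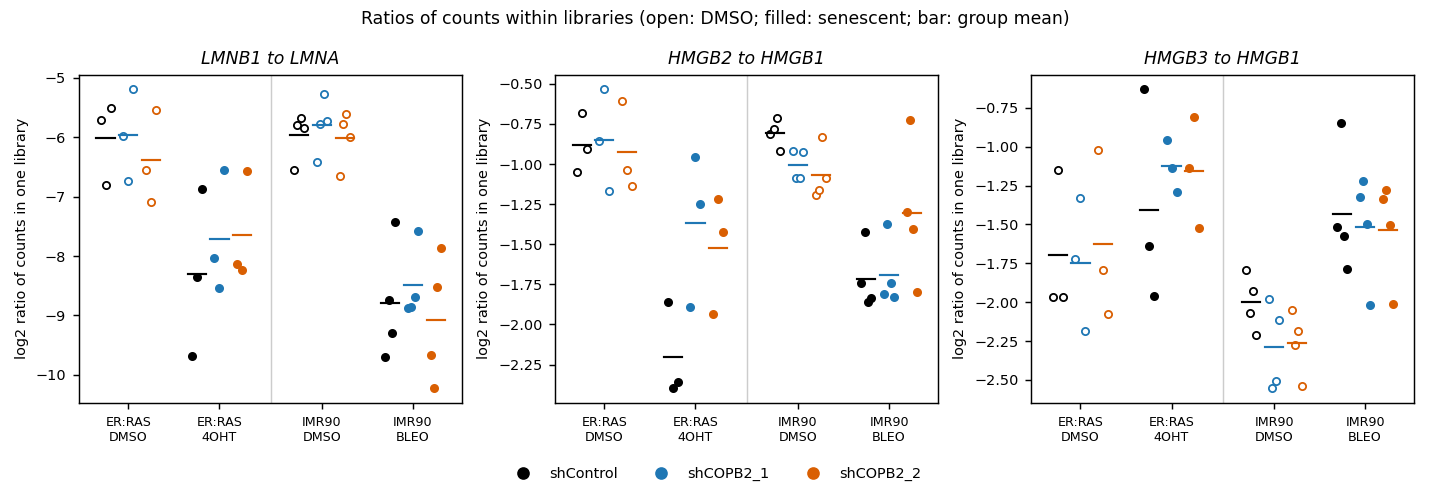
Log2 ratio of raw counts between members of a family in every library, by treatment, with bars for means. In IMR90 cells the LMNB1 to LMNA ratios after bleomycin (mean -8.78) all lie below those with DMSO (mean -5.92).

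The response of these genes was measured again in the arms that carried a COPB2 shRNA, each against its own DMSO libraries. LMNB1 fell and HMGA1 and HMGA2 rose in all 6 arms. Called lower in all 6 was therefore 1 member, against 7.84% of all genes, and called higher in all 6 were 2, against 5.20%. With 4OHT, LMNB1 was at 2.60, 2.38 and 3.85 CPM with shCOPB2_1 and at 2.67, 3.13 and 3.52 CPM with shCOPB2_2. Its log2 fold change was -2.09 (adjusted p = 0.000277) and -1.72 (adjusted p = 0.00133) in OIS, and -2.50 (adjusted p = 3.26e-07) and -2.60 (adjusted p = 2.23e-07) after bleomycin. HMGA1 rose by 2.17 and 1.92 in OIS with shCOPB2_1 and shCOPB2_2, and by 1.36 and 1.48 after bleomycin, with adjusted p-values of at most 0.00391. HMGA2 rose by 2.00 and 1.47 in OIS and by 1.88 and 1.33 after bleomycin, with adjusted p-values of at most 0.00662.

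LBR and HMGB2 did not pass in OIS with either COPB2 shRNA in the unblocked fit. In that fit 3 members were called with shCOPB2_1 and 3 with shCOPB2_2, against 36.9% of all genes in each. The log2 fold change of LBR was -1.10 (adjusted p = 0.0821) and -0.94 (adjusted p = 0.137), and that of HMGB2 was -1.04 (adjusted p = 0.149) and -1.06 (adjusted p = 0.139). Same-numbered libraries of these arms deviated together (correlations of 0.405 to 0.755 and 0.459 to 0.766). Other-numbered libraries reached 0.517 and 0.498, and 2 of 3 libraries were most like their own number in each arm. The replicate block was fitted over all 18 ER:RAS libraries, including the shControl arm, where numbers did not pair the libraries. With the block both genes passed with each shRNA. The blocked adjusted p-values were 0.0109 and 0.0241 for LBR and 0.00742 and 0.00563 for HMGB2, which gave 5 members called in each arm. With the block, 7612 and 7588 of all 14297 genes tested were called in these arms, against 5272 and 5280 without it. After bleomycin, both genes fell with each shRNA, LBR at -0.82 (adjusted p = 0.018) and -0.97 (adjusted p = 0.00536), and HMGB2 at -1.35 (adjusted p = 4.18e-05) and -1.08 (adjusted p = 0.000362).

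After bleomycin, 5 members were called with shCOPB2_1 (35.2% of all genes) and 7 with shCOPB2_2 (40%). The additional genes with shCOPB2_2 were HMGB1, which fell by 0.77 (adjusted p = 0.024), and CBX5, which fell by 0.61 (adjusted p = 0.0371). CBX5 stood at 62.2, 109.8, 76.2 and 93.4 CPM with DMSO and at 59.0, 29.4, 86.2 and 55.9 CPM after bleomycin in that arm. Replicate 2 held the lowest bleomycin value and the highest DMSO value. The CBX5 value was -0.38 without that bleomycin library (adjusted p = 0.115) and -0.46 without that DMSO library (adjusted p = 0.134), and it did not pass without replicate 4 of either treatment (0.0588 and 0.0792) or with the GC and length correction (-0.27, adjusted p = 0.155). HMGB1 was also not called without replicate 1 or 2 of the bleomycin libraries of that arm (adjusted p = 0.078 and 0.0744) or without replicate 3 of its DMSO libraries (0.0607). With shCOPB2_1 the values of these genes were -0.65 for HMGB1 (adjusted p = 0.0582) and -0.37 for CBX5 (adjusted p = 0.228).

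**Figure D4:**
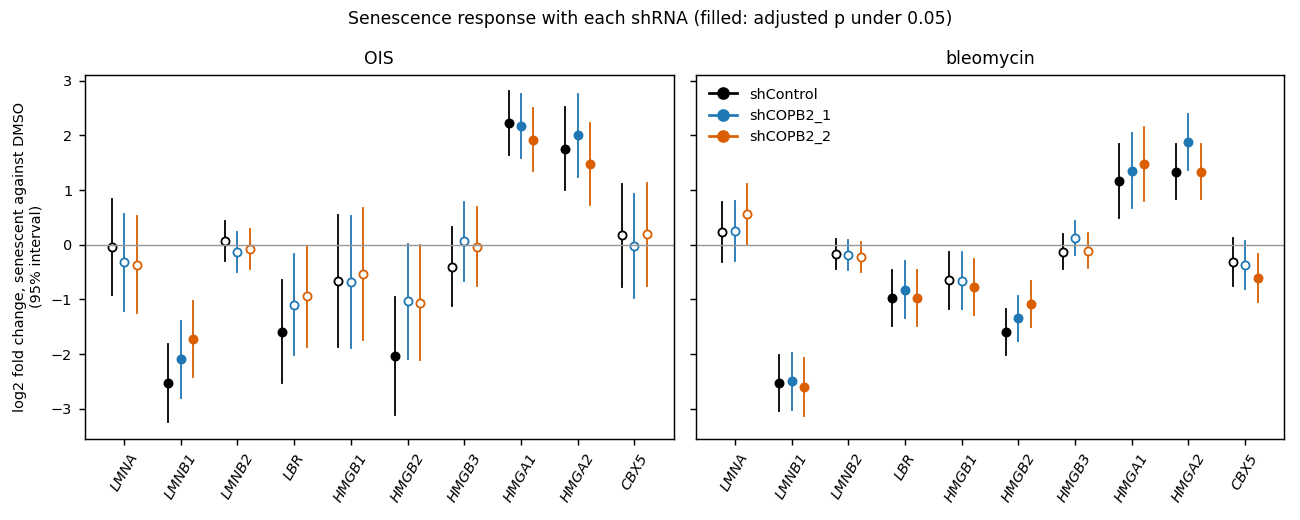
Log2 fold change, senescent against DMSO, of the 10 genes in the 6 arms (OIS and bleomycin with shControl, shCOPB2_1 and shCOPB2_2), with bars for the 95% interval. LMNB1 lies between -1.72 and -2.60 in all 6 arms, and HMGA1 between 1.16 and 2.23.

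The shRNAs themselves were compared with shControl within each line and treatment, to ask whether depletion of COPB2, which encodes a subunit of the COPI vesicle coat, moved these genes. The guide strands of the shRNAs against COPB2 that the study lists under the matching numbers are printed here, because they define the perturbation. Each is the exact reverse complement of a stretch of annotated COPB2 transcripts (GENCODE) and matched no other gene on either strand. Capitals mark bases 2 to 8, the seed.
COPB2.1: tTAAATATctttacaatgctgt
COPB2.2: tAATTGAAcactctaatctgca
Over 8 comparisons and 10 genes there were 80 values, and edgeR called none of them, and DESeq2 called no member in any of the 8. Of all genes, edgeR called 0.00699% with either shRNA in ER:RAS DMSO, 0.140% and 0.224% in ER:RAS 4OHT, 0.00676% with either in IMR90 DMSO, and 0.00676% and 0.0744% in IMR90 BLEO. At an unadjusted p under 0.05 there was 1 value, HMGB2 with shCOPB2_2 in IMR90 BLEO (0.45 higher, SE 0.21, adjusted p = 0.731). In that group HMGB2 was at 11.3, 18.7, 16.1 and 17.6 CPM, overlapping the shControl libraries. The 80 log2 values ran from -0.55 (LMNB1 with shCOPB2_2 in ER:RAS DMSO) to 0.60 (HMGB2 with shCOPB2_1 in ER:RAS 4OHT). The farthest 95% bound was 1.65 in ER:RAS cells and 0.92 in IMR90 cells, so changes beyond these sizes lay outside all the intervals.

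The comparisons with shCOPB2_1 and shCOPB2_2 share their shControl libraries. Libraries did not overlap in 2 of the 80 values. They were LMNB2 with shCOPB2_2 in ER:RAS 4OHT (-0.33, not called) and HMGA2 with shCOPB2_1 in IMR90 DMSO (-0.42, not called). Of all genes, the share without overlap for shCOPB2_1 and shCOPB2_2 was 3.97% and 3.11% in ER:RAS DMSO, 6.36% and 7.83% in ER:RAS 4OHT, 1.68% and 1.54% in IMR90 DMSO, and 1.21% and 1.89% in IMR90 BLEO. Whether the senescence response differed with COPB2 depleted was tested as an interaction, in 40 values. None was called by edgeR or DESeq2, none had an unadjusted p under 0.05 in edgeR, and 0.00% of all genes were called by edgeR. These interaction values ran from -0.32 to 0.99, with the farthest 95% bound at 2.46 in ER:RAS cells and 1.26 in IMR90 cells.

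Across the 12 groups, the order of mean levels followed treatment for 6 of the genes. All 6 senescent group means were below all 6 DMSO group means for LMNB1, LBR, HMGB1 and HMGB2, and above them for HMGA1 and HMGA2. LMNA, LMNB2, HMGB3 and CBX5 were mixed. ER:RAS 4OHT shControl was the highest group for LMNA, LMNB2, HMGA1 and HMGA2 and the lowest for LBR and HMGB2. Most neighbours in these orders did not differ beyond their spread: of the 11 neighbouring pairs, 9 (HMGA2), 10 (LMNB1, LMNB2, LBR and HMGA1) or 11 (the remaining genes) had means closer than the larger SD of the pair.

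The genes whose 12 group means of log2 CPM most resembled those of a member were listed as a description, from 9402 genes with a mean of at least 10 CPM. For LMNB1 they were LRIG1 (Pearson r = 0.985), RNF122 (0.983) and AEBP1 (0.981), for LBR SNTB1 (0.991), NKAPD1 (0.987) and CDKN1B (0.986), and for HMGB1 NAP1L1 (0.992), SH3BGRL and SSPN. HMGB2 was most like RPL31 (0.969), RUNX1T1 and FAM118A. HMGA1 was most like BMP2 (0.999), PSMD2 (0.998) and SHC1 (0.998), and HMGA2 was most like KYNU (0.986), REEP5 (0.983) and SLC16A6 (0.982). For LMNA they were HYI (0.962), BCS1L and ZDHHC12, for LMNB2 FBH1 (0.978), FBXL19 and EHBP1L1, and for CBX5 APBB2 (0.963), ECPAS and DHX40. For HMGB3 the likeness was lower, with COPB2 at 0.636 and RPIA at 0.581. The points share libraries and scaling, and the 6 senescent groups separate from the 6 DMSO groups for many genes.

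Other genes of the same compartments were followed in lists, with shControl. Each list here and below stands beside all genes tested. Of those, 20.2% were called lower and 15.5% higher in OIS, with a median of -0.08. After bleomycin 15.8% were called lower and 15.4% higher, with a median of -0.01. Of 18 genes of the lamina and inner nuclear membrane, 3 fell and none rose in OIS (median -0.40) and 3 fell and 1 rose after bleomycin (median -0.18). NRM, which encodes nurim, fell by 1.63, TMEM43 fell by 1.15 and SUN1, which joins the lamina to the cytoskeleton, fell by 0.80 in OIS. After bleomycin SYNE2 (-1.34), TMPO, which encodes the lamin-binding LAP2 proteins (-1.19), and SUN1 (-0.60) fell, while TOR1A rose by 0.65. Of 6 lamin processing genes, NARF (1.33) and RCE1 (0.95), a protease of the farnesylation pathway, rose in OIS (list median 0.49) and none passed after bleomycin (list median 0.06).

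Of 14 heterochromatin genes, 4 fell and 1 rose in OIS (median -0.31) and 6 fell after bleomycin (median -0.41). CBX1, which encodes HP1β, fell (-1.34 in OIS and -0.75 after bleomycin), and UHRF1, which recruits the maintenance DNA methyltransferase, fell (-1.32 and -0.97). HELLS, a chromatin remodeller, fell by 1.94 and LRWD1 rose by 1.30 in OIS, and the histone methyltransferase genes EHMT2 (-0.67) and EHMT1 (-0.57) fell after bleomycin. Of 8 genes for histone chaperones and other proteins of senescence-associated heterochromatin foci, 1 fell in OIS (median -0.08) and 2 after bleomycin (median -0.26). The H3-H4 chaperone gene ASF1B fell (-3.75 and -1.41), and CABIN1 fell by 0.65 after bleomycin. Of 12 condensin, linker histone and histone variant genes, 4 fell in OIS (median -0.66) and 7 after bleomycin (median -0.80), among them the condensin genes NCAPG2 (-2.15 and -1.21) and NCAPG (-4.41 and -2.15).

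Of 12 other HMG domain and HMGN genes tested, 4 fell and 1 rose in OIS (median -0.58) and 6 fell after bleomycin (median -0.47). TOX, a transcription factor gene with an HMG box, fell by 3.92 after bleomycin, and UBTF, which encodes a factor for ribosomal RNA genes, fell (-0.89 and -0.54). HMGN2 (-1.25) and SMARCE1 (-1.47) fell in OIS, and SSRP1 (-0.48) fell after bleomycin. Of 7 genes tested that process let-7 or bind HMGA2 messenger RNA, 2 rose and 2 fell in OIS (median 0.39) and 1 fell after bleomycin (median -0.22). DGCR8 fell (-0.93 and -0.50) and DROSHA fell by 0.86 in OIS, where XPO5 rose by 0.79 and IGF2BP1 by 0.40. Of 5 HMGB receptor and signalling genes tested, 3 rose and 1 fell in OIS (median 3.94) and 2 rose and 2 fell after bleomycin (median -0.48), and the receptor gene TLR2 rose by 3.94 in OIS and fell by 1.11 after bleomycin.

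Lists of cell state and cell type stand beside these results as measured values. Of 24 proliferation genes, 22 fell and 2 rose in OIS (median -1.79) and 18 fell and 3 rose after bleomycin (median -1.11), and BIRC5, which encodes survivin, fell (-5.89 and -2.42). Of 12 senescence markers, 8 rose and 2 fell in OIS (median 3.00) and 7 rose and 1 fell after bleomycin (median 2.01). Of 10 fibroblast markers, 6 fell and 1 rose in OIS (median -1.28) and 8 fell after bleomycin (median -1.09). Of 4 epithelial markers tested in OIS, 2 fell (median -0.85), and of 5 tested after bleomycin, 1 rose (median 0.31). Of 5 endothelial markers tested in OIS, 4 rose and 1 fell (median 5.01, or 3.75 with CDH5, which had no count in ER:RAS DMSO shControl, at its bound from 3 counts), and of 4 tested after bleomycin, 2 rose and 1 fell (median 0.80). Of 2 immune markers tested in OIS, 1 rose (median 0.59), and of 3 tested after bleomycin, 2 rose (median 1.80). Immune markers summed to 17.4 to 40.4 CPM in ER:RAS DMSO shControl and 110.05 to 120.6 CPM with 4OHT, and to 13.4 to 29.6 CPM in IMR90 DMSO shControl and 59.4 to 98.6 CPM after bleomycin. CD68, which encodes a lysosomal protein, rose by 1.98 and 1.80, and 1 to 3 of the 6 immune markers had no count in each of these groups. The part of other cell types in the results was not tested.

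Promoter sequences were read for members of opposite behaviour, to show what the windows of LMNB1, LBR and HMGA1 hold beside that of LMNA, which passed in neither model. Each is the 250 bases before the outermost RefSeq start on GRCh38.p14, written on the strand of the gene. Capitals mark CCAAT, TTTCCCGC (an E2F site), TTTGAA (the CHR element) and TGACTCA (an AP-1 site), on either strand.
LMNA, chr1:156082323-156082572, plus strand: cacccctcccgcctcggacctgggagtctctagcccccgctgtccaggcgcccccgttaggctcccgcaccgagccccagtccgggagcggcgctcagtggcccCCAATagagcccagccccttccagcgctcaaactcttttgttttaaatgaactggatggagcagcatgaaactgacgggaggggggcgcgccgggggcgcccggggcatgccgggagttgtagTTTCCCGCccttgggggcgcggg
LMNB1, chr5:126776373-126776622, plus strand: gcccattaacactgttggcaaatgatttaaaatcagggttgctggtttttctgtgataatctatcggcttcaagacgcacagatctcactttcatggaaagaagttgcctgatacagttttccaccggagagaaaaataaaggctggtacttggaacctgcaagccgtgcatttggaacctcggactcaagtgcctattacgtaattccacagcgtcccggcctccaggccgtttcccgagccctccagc
LBR, chr1:225428822-225429071, minus strand: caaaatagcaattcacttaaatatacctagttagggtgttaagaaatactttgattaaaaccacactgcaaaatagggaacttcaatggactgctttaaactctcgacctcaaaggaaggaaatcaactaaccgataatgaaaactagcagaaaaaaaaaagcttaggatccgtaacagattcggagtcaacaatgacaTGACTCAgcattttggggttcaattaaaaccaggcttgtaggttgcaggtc
HMGA1, chr6:34236623-34236872, plus strand: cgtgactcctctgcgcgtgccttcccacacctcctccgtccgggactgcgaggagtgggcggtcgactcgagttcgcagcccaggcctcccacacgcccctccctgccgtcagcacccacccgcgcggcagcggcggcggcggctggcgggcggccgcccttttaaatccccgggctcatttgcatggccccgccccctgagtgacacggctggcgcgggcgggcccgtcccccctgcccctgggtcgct
The printed LMNA window held CCAAT and TTTCCCGC, the LBR window held TGACTCA, and the printed LMNB1 and HMGA1 windows held none of these words. Windows before further RefSeq starts, not printed, held CCAAT for LMNB1 (start 126777136) and HMGA1 (start 34238791). Those of LMNA held none of these words. Windows were found for 8 of the 10 members, not for HMGB2 and HMGA2. These members had 17 windows, of which 9 held CCAAT, 3 TTTGAA, 1 TTTCCCGC and 1 TGACTCA, and none held TTTGGCGC, TTCGAA or TATAAA. Windows of a gene can overlap, and those before the CBX5 starts 54259586 and 54259545 held the same CCAAT, counted for each. Of 35116 RefSeq windows of the same length, 32% held CCAAT, 13.3% TTTGAA, 1.39% TTTCCCGC, 4.20% TGACTCA, 0.550% TTTGGCGC, 1.19% TTCGAA and 10.7% TATAAA. A match describes letters in the window and does not show a bound factor.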

How the data were processed

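Poly(A) RNA was sequenced in 42 libraries. The deposited table, which the authors made, holds raw, unnormalized counts for each gene symbol. The labels' processing notes name DRAGEN, STAR 2.7.8a, DESeq2 1.32.0 and hg38, whereas the study's methods describe directional single-end reads, Tophat, hg19 and HTSeq, so the counter that made this table, and how it treated reads matching several places, are not given in the sources used here. Of 28266 symbols, 3476 had no count in any library.

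Counts were tested with edgeR 4.0.16 (TMM factors 0.611 to 1.16, filterByExpr, quasi-likelihood fit, Benjamini-Hochberg adjustment over all genes tested). The ER:RAS and IMR90 libraries were fitted separately, and the models were compared in 1 fit of all 42 libraries. Intervals are the log2 fold change ± 1.96 SE. CPM are counts per 1000000 TMM-scaled counts. Count ratios were computed within libraries with a pseudocount of 0.5. Depth was 13148194 to 23597310 counts per library, and a floor of 3 counts was used where a group had none. Alternatives were DESeq2 1.42.0 (test and size factors), no filter on low counts, the replicate number as a block, each library left out in turn, only the groups compared and, chosen after seeing the data, a correction for GC content and transcript length, ratios averaged over the shRNAs for each replicate number and a fit without the 4 libraries of steepest GC trend. The tests were checked on simulated counts.

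The members and gene lists were chosen with earlier results of these data known, so list counts are descriptions. The text names all 10 members, COPB2 and HRAS, up to 4 genes per list among those with the largest called changes, and the 3 genes most like each member, except for some that are not reported here. Same-numbered libraries deviated together, with every correlation over 0.1, in OIS with shCOPB2_1 (0.405 to 0.755) and with shCOPB2_2 (0.459 to 0.766) and in the IMR90 comparisons of a COPB2 shRNA with shControl (0.106 to 0.787). No label states a shared day or batch. Gene coordinates and promoter windows come from RefSeq on GRCh38.p14, in which 26986 symbols (95.5%) matched by symbol, and transcript length and GC content come from GENCODE. The guide strands come from the study's supplement, and were matched to the labels by their number. Python 3.11.15, scipy 1.17.1 and R 4.3.3 were used.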

Additional observations from a re-analysis of the deposited data

Results flagged for a closer look

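Within the 60 groups of 4 libraries examined (10 genes in 6 IMR90 groups), a single library stood apart from the other 3 in 2. By chance about 1 in 20 such groups would be expected to hold one. HMGA2 was at 127 CPM in IMR90 BLEO shCOPB2_1 replicate 2, against 235, 228 and 234 CPM in the other libraries of the group. CBX5 was at 62.6 CPM in IMR90 DMSO shControl replicate 1, against 87.0, 85.2 and 89.5 CPM in the others.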

How the results depend on the processing

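LMNB1, HMGB2, HMGA1 and HMGA2 in OIS and LMNB1, LBR, HMGB2 and HMGA2 after bleomycin with shControl passed under every alternative run. LBR in OIS did not pass in the fit of only the groups compared (adjusted p = 0.0527). DESeq2 size factors moved the median of all genes in OIS with shControl by 0.12. Of the fold changes and differences of named genes, alternatives other than leaving out a library left 387 values on the same side, made 38 pass and 5 fail, and turned the sign of 10 (reported values of at most 0.19 in size), and leaving out a library left 433, made 5 pass and 11 fail and turned 27.

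The number of members called changed mainly with the block and the GC and length correction, and the cause was not tested. For the difference between models it was 0 in the reported fit, 1 with the replicate block (HMGA1, 1.15, adjusted p = 0.0172), 2 with the correction, 4 with both and 0 to 1 with a library left out. The genes called with both were HMGA1, LBR, HMGA2 (0.56, adjusted p = 0.0468) and CBX5 (0.53, adjusted p = 0.0143). Of all 15299 genes, 3101 were called in the reported fit, 4473 with the block, 5151 with the correction and 6105 with both. For the DMSO comparison of the lines it was 1 with the correction and 1 with both, where 142 and 335 of the 15299 genes were called. In OIS with shCOPB2_1 it was 5 with the replicate block, 6 with the correction, 6 with both and 5 without the 4 steep libraries. Of all 14297 genes, 7612, 8184 and 9500 were called there with the block, the correction and both. Without the steep libraries it was 5444 of 14473 genes. In OIS with shCOPB2_2 the number of members called was 5 with the block, 6 with the correction and 6 with both, beside 7588, 8131 and 9445 of 14297 genes. After bleomycin with shCOPB2_1 it was 8 with both, beside 8123 of 14783 genes. The pairing by number changed no other count of members called past 1.5 times. In the shControl arms the numbers did not pair the libraries (correlations of -0.55 to 0.56 in OIS and -0.47 to 0.56 after bleomycin), and there the block made HMGB1 pass after bleomycin (adjusted p = 0.0097).

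With control shRNA libraries only, the ratio tests cannot reach the threshold after adjustment over the 10 ratios, so a loss there says nothing about stability. The differences were then -2.29 and -2.82 for LMNB1 to LMNA in OIS and after bleomycin, -0.38 for LMNB2 to LMNA after bleomycin, -1.33 and -0.91 for HMGB2 to HMGB1, and 0.57 for HMGB3 to HMGB1 after bleomycin. With the mean over the shRNAs per replicate number, chosen after seeing the data, the differences stayed at -1.76 and -2.86 for LMNB1 to LMNA, -0.49 for LMNB2 to LMNA after bleomycin, -0.81 and -0.61 for HMGB2 to HMGB1 and 0.69 for HMGB3 to HMGB1 after bleomycin, and did not pass (exact permutation adjusted p of 0.0952 to 0.333), which 3 or 4 values a group cannot do after this adjustment. HMGB3 to HMGB1 in OIS was 0.33 to 0.56 with a library left out and passed in 4 of those fits.

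No value whose sign turned was called, and the reported values furthest from 0 were HMGB1 in OIS with shCOPB2_2 (-0.53) and HMGB2 in the difference between models (-0.36). LMNA in OIS was 0.10 with DESeq2 size factors, 0.10 in DESeq2's test and 0.0206 without the filter. CBX5 in OIS with shCOPB2_1 was 0.0856 with DESeq2 size factors, 0.0857 in DESeq2's test, 0.0391 without the filter, 0.19 with the correction, 0.19 with the correction and block and 0.00429 with only the groups compared, and with shCOPB2_2 it was -0.0575 without the 4 steep libraries. With a library left out, CBX5 in OIS ran from -0.34 to 0.55 with shControl, from -0.29 to 0.30 with shCOPB2_1 and from -0.0947 to 0.75 with shCOPB2_2. In OIS, LMNA ran from -0.67 to 0.37, LMNB2 from -0.0144 to 0.34 and HMGB1 with shCOPB2_2 from -0.82 to 0.0716, and HMGB3 after bleomycin ran from -0.21 to 0.00885. For the difference between models, LMNA ran from -0.89 to 0.18, LMNB1 from -0.22 to 0.37, HMGB1 from -0.37 to 0.48, HMGB2 from -0.70 to 0.0913 and HMGB3 from -0.42 to 0.10. Depth limited LMNB1 most, with 18 to 355 counts per library.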
